A study of Mus musculus with 12 samples.

Results

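The 9 genes described here carry chloride across the membranes of brain cells. They comprise 4 electroneutral cation-chloride cotransporters, Slc12a5 (KCC2), Slc12a2 (NKCC1), Slc12a4 (KCC1) and Slc12a7 (KCC4), and 5 members of the ClC family, Clcn2, Clcn3, Clcn4, Clcn6 and Clcn7. They were chosen by symbol, with earlier results of these data known, and all 9 were found among the 19312 genes measured. Brain RNA was sequenced from 12 male C57BL/6N mice in 4 groups of 3, all collected at postnatal day 25. WT-Veh and WT-Mem mice carried intact Shank2, and KO-Veh and KO-Mem mice carried a homozygous deletion of Shank2 exons 6 and 7. Mem mice received memantine, an antagonist of NMDA receptors, by mouth at 20 mg/kg from postnatal day 7 until day 21, in 2 daily doses, and Veh mice received the 0.1% saccharin vehicle on the same days. The labels give the tissue as whole brain, whereas the study's methods describe forebrain without cerebellum and brain stem.

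Neurons set the direction of the chloride current through GABA-A receptors with a pair of opposing cotransporters: KCC2 carries chloride and potassium out of mature neurons, and NKCC1 carries sodium, potassium and chloride in. KCC1 and KCC4 export chloride with potassium in many cell types and take part in cell volume regulation. ClC-2 is a chloride channel of the plasma membrane of neurons and glia, whereas ClC-3, ClC-4, ClC-6 and ClC-7 exchange chloride for protons in endosomes and lysosomes. ClC-7 works together with its subunit OSTM1 in lysosomes.

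Values are normalized counts, which are estimated read counts divided by normalization factors, so a gene's values can be compared between mice. The sums per mouse lay between 30373849 and 31199251, set nearly equal by the normalization, and the estimated relative depth of the mice lay between 0.89 and 1.15. Shank2, the deleted gene, averaged 8000 ± 498 (SD, n = 3) normalized counts in WT-Veh mice against 2927 ± 178 (SD, n = 3) in KO-Veh mice. Its values did not overlap between genotypes. Several libraries stood apart. KO-Veh mouse 3 had cerebellar transcripts, with normalized counts of 744.8 for Cbln3, 379.7 for Pcp2 and 253.9 for Gabra6. The highest values in any other mouse were 64.99, 21.54 and 12.88, each of them in WT-Veh mouse 3. WT-Veh mouse 3 had the highest summed oligodendrocyte markers of all mice (407700), and KO-Mem mouse 1 the lowest (237400). WT-Veh mouse 3 also had the lowest summed markers of neurons (172700) and of GABAergic neurons (25080). Of the 9 genes, Slc12a5, Slc12a2, Slc12a7, Clcn3 and Clcn7 were lowest in this mouse, and Slc12a4 and Clcn2 were highest in it. Values without KO-Veh mouse 3, WT-Veh mouse 3 or KO-Mem mouse 1 are given beside several of the main results that they moved. In bulk tissue, fewer cells of a type and less RNA per cell cannot be told apart.

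The level of each gene was first compared between genes per kilobase of exon, with the exons of all annotated transcripts of a gene joined. The length of the transcripts in use was not measured, and the order of the genes depends on this choice. Slc12a5 stood far above the rest, at 3195 ± 100 (SD, n = 12) normalized counts per kb, and lay at percentile 99.4 of all genes by its mean normalized count. Clcn4 followed at 697.2 ± 26.1 (SD, n = 12) and Clcn6 at 581.8 ± 14.4 (SD, n = 12) normalized counts per kb. Neither of these overlapped with its neighbour in the order in any mouse. Clcn7 (387.9 normalized counts per kb), Clcn2 (386.1), Clcn3 (332.6) and Slc12a2 (287.5) formed a run in which each overlapped with the next. Slc12a4 lay below them at 206.7 ± 24.4 (SD, n = 12), and Slc12a7 lay lowest at 19.28 ± 3.54 (SD, n = 12). Among the 12 mice, Clcn6 varied least, with a coefficient of variation of 2.47%, and Slc12a7 most, with 18.3%.

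**Figure D1:**
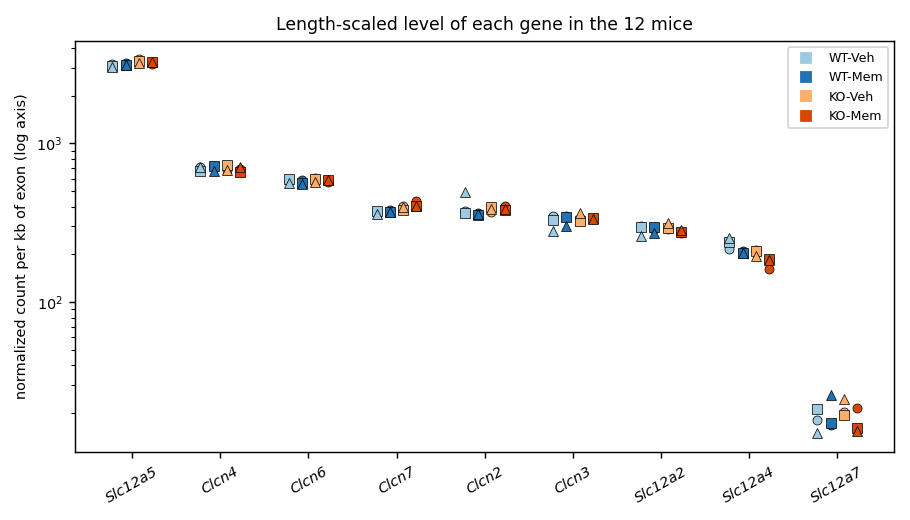
Normalized counts per kilobase of exon (log axis) of the 9 genes, ordered by mean, with 1 point per mouse, coloured by group and shaped by mouse number. Slc12a5 lies at 3037 to 3387 in the 12 mice and Slc12a7 at 14.97 to 26.01, and the points of Clcn7, Clcn2, Clcn3 and Slc12a2 overlap from each gene to the next.

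The effects of genotype and of memantine were then tested with limma on log2(normalized count + 1), with p-values adjusted by Benjamini-Hochberg over all genes tested, and a gene was called at an adjusted p under 0.05. The pooled genotype effect compared 6 KO with 6 WT mice with treatment in the model, and the pooled memantine effect compared 6 Mem with 6 Veh mice with genotype in the model. For genotype, 1 of the 9 genes was called, Slc12a4, which was lower in KO, against 10.8% of all 17655 genes tested (5.91% were lower in KO). The count is thus close to that background. By unadjusted p under 0.05, 2 of the 9 passed, Slc12a4 and Clcn7, against 29.5% of all genes, and 7 of the 9 estimates were above 0, against 50.9% of all genes. The median log2 fold change of the 9 was 0.03, and that of all genes was 0.004. For memantine, none of the 9 was called and none of all genes was called (0%) by limma, while 1 of the 9 (Slc12a4) and 8.6% of all genes had an unadjusted p under 0.05. The Mem and Veh values of all 9 overlapped, whereas those of 0.17% of all genes did not.

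**Figure D2:**
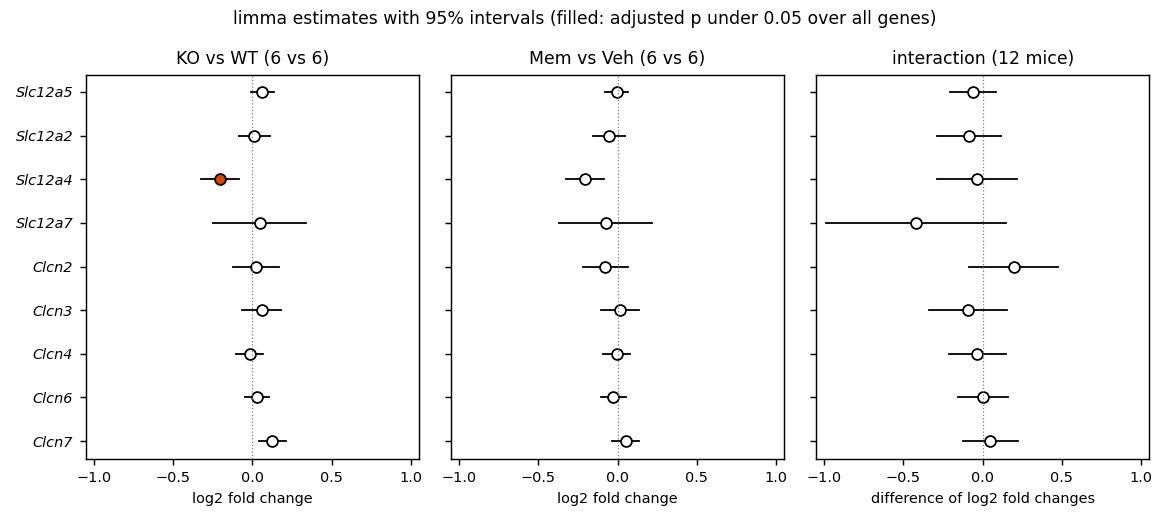
Estimates of limma with 95% intervals for the 9 genes, as the log2 fold change of KO against WT (left), of Mem against Veh (middle) and as the difference of log2 fold changes for the interaction (right). The filled point is the only estimate with an adjusted p under 0.05, Slc12a4 for genotype at -0.21, and the widest interval is that of Slc12a7 for the interaction, from -0.98 to 0.14.

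Slc12a4 (ENSMUSG00000017765, chromosome 8, 105943590 to 105966097, minus strand, GRCm38), which encodes the potassium-chloride exporter KCC1, had the clearest pattern over the 4 groups. Its normalized counts were 925.1, 1018 and 1088 (WT-Veh), 901.6, 872.1 and 878.2 (WT-Mem), 917.9, 898.1 and 839.3 (KO-Veh) and 687.5, 801.9 and 787.3 (KO-Mem). All 3 WT-Veh mice lay above every other mouse and all 3 KO-Mem mice lay below every other mouse, whereas the WT-Mem and KO-Veh mice overlapped. Over both treatments it fell from 947.2 ± 86.9 (SD, n = 6) in WT to 822 ± 83.6 (SD, n = 6) in KO mice, a log2 fold change of -0.21 (SE 0.06, 95% interval -0.33 to -0.09, adjusted p = 0.0338, limma). The direction was the same when any mouse was left out, but the call was lost in 8 of the 12 fits that left out a single mouse. The adjusted p was 0.0823 without KO-Veh mouse 3, 0.0632 and 0.0572 without WT-Veh mice 2 and 3, 0.0713, 0.0575 and 0.0594 without WT-Mem mice 1, 2 and 3, and 0.0748 and 0.0526 without KO-Mem mice 1 and 2. It was 0.0549 without the variance trend and 0.111 with both KO-Veh mouse 3 and WT-Veh mouse 3 left out, when the log2 fold change was -0.17 (SE 0.06). Over the single omissions the adjusted p ranged from 0.0232 to 0.0823, and over the other settings from 0.0295 to 0.111. The memantine estimate of Slc12a4 was of the same size, -0.21 (SE 0.06, 95% interval -0.33 to -0.09), with 821.4 ± 79.6 (SD, n = 6) in Mem and 947.7 ± 89.7 (SD, n = 6) in Veh mice. It did not pass (unadjusted p = 0.00242, adjusted p = 0.416, limma), although Slc12a4 ranked at place 97 among all 17655 genes. Without KO-Mem mouse 1 the memantine estimate was -0.17 (adjusted p = 0.747). The difference between the genotype effect in the treated and in the vehicle mice was -0.03 (SE 0.12, 95% interval -0.29 to 0.22, adjusted p = 0.985), and -0.13 (adjusted p = 0.956) without KO-Veh mouse 3 and WT-Veh mouse 3.

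The comparisons of single groups gave the same order for Slc12a4, with no call. In KO-Veh against WT-Veh mice (Veh-K/W) the log2 fold change was -0.19 (adjusted p = 0.339, limma), and it was -0.10 (adjusted p = 0.78) with KO-Veh mouse 3 and WT-Veh mouse 3 left out. In KO-Mem against WT-Mem mice (Mem-K/W) it was -0.22 (adjusted p = 0.193). For memantine it was -0.22 in KO mice (KO-M/V, adjusted p = 0.555) and -0.19 in WT mice (WT-M/V, adjusted p = 0.978). Without KO-Mem mouse 1 it was -0.15 in Mem-K/W (adjusted p = 0.49) and -0.15 in KO-M/V (adjusted p = 0.951). It was -0.135 in WT-M/V without WT-Veh mouse 3. KO-Mem against WT-Veh mice (KO-M/WT-V) gave the largest difference, a log2 fold change of -0.41 (SE 0.10, fold 0.751), with an adjusted p of 0.0502, just above the threshold. It passed with all 12 mice in a single fit (adjusted p = 0.0101), in a range of 0.0101 to 0.149 over the other settings and of 0.0299 to 0.159 over the omissions of a single mouse. Without KO-Mem mouse 1 the log2 fold change of KO-M/WT-V was -0.34 (adjusted p = 0.159). WT-Mem against KO-Veh mice (WT-M/KO-V) gave a log2 fold change of -0.001. These comparisons share groups and are not independent of each other. An antisense gene, Gm16156, shares 361 exonic bases with Slc12a4 (8.4% of its exonic length), and the sources used here do not state that strand was used in counting, so the values of both genes are uncertain there.

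Markers of several cell types were also lower in KO mice, though their order over the groups was not always that of Slc12a4. Summed normalized counts of 6 oligodendrocyte markers were 329100 to 407700 (WT-Veh), 294400 to 345300 (WT-Mem), 285900 to 305400 (KO-Veh) and 237400 to 280500 (KO-Mem). All 6 of these markers had a lower estimate in KO mice, and 5 were called. Of the 6 endothelial markers 4 were called lower in KO mice, with summed values of 6823 to 7202 (WT-Veh), 6172 to 6584 (WT-Mem), 5668 to 5923 (KO-Veh) and 5594 to 6286 (KO-Mem). The 5 blood markers, of which 4 were called lower, summed to 19450 to 26320 (WT-Veh), 13300 to 14810 (WT-Mem), 7567 to 18760 (KO-Veh) and 5626 to 12530 (KO-Mem). Their median log2 fold change for genotype was -0.78. Of the oligodendrocyte precursor markers 2 of 5 were called lower, of the microglial 1 of 6, of the astrocyte 2 of 6 and of those of GABAergic neurons 1 of 6, while 2 of the last were called higher. None of the 6 neuronal, 6 choroid plexus, 6 forebrain and 6 cerebellar markers was called, and the neuronal sums overlapped between all groups. A list of 6 hindbrain genes was not analysed here. The part of these cell types in the result for Slc12a4 was not tested.

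**Figure D3:**
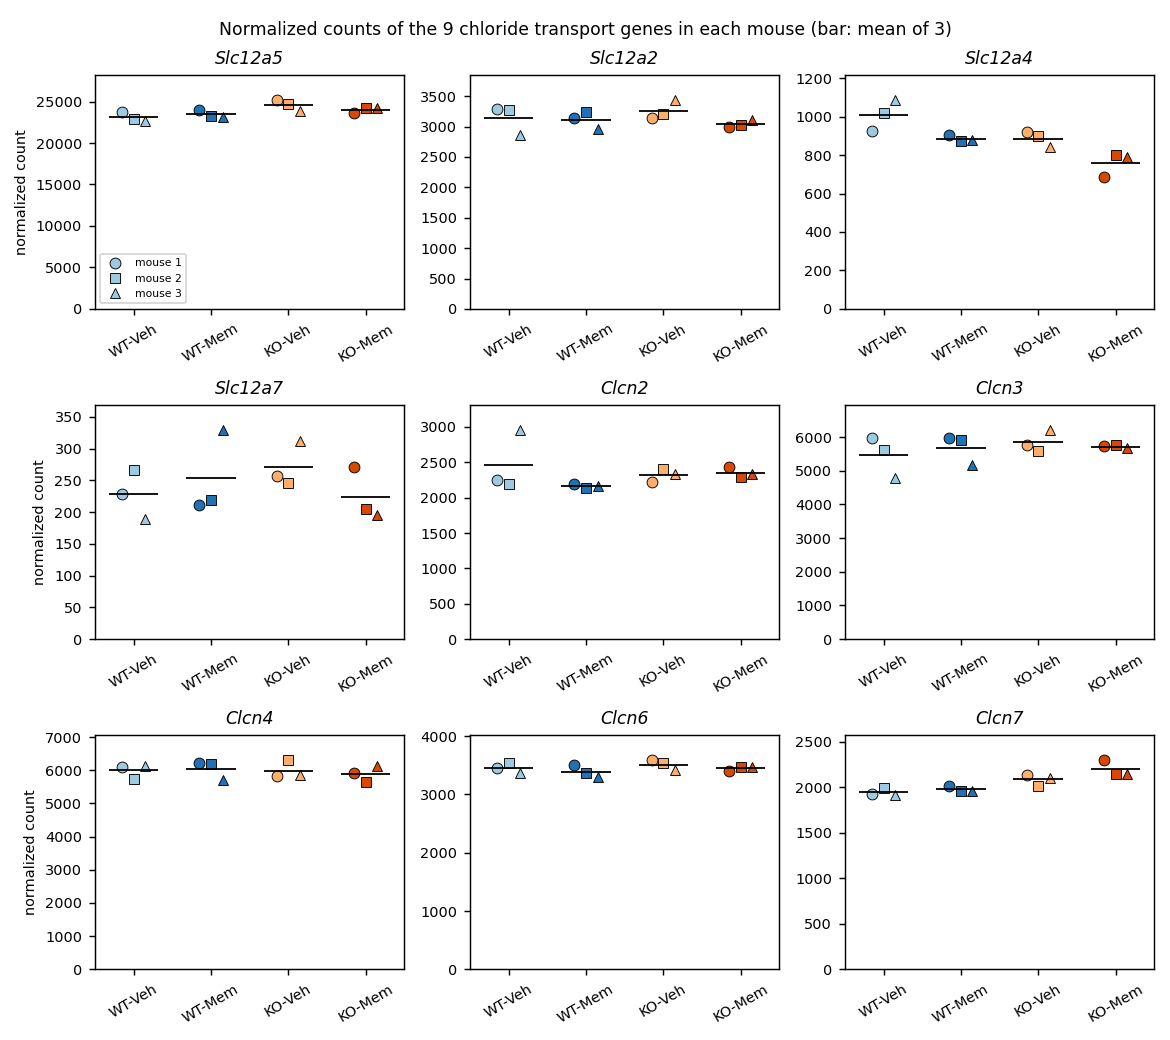
Normalized counts of the 9 genes (linear axes from 0) in each of the 12 mice, by group, with the mouse number as the shape of the point and a bar at the mean of 3. Slc12a4 lies highest in WT-Veh and lowest in KO-Mem mice, Clcn7 lies higher in all 6 KO mice than in all 6 WT mice, and the 2959 of Clcn2 in WT-Veh mouse 3 stands above all other mice.

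Clcn7 (ENSMUSG00000036636, chromosome 17, 25133391 to 25162104, plus strand), encoding the lysosomal exchanger ClC-7, was the only one of the 9 whose KO and WT values did not overlap over both treatments, against 4.06% of all genes. Its normalized counts were 1922, 1997 and 1914 (WT-Veh), 2016, 1961 and 1964 (WT-Mem), 2135, 2018 and 2106 (KO-Veh) and 2300, 2144 and 2150 (KO-Mem). The lowest KO mouse (KO-Veh mouse 2) lay just above the highest WT mouse (WT-Mem mouse 1), and the highest values were in KO-Mem mice. Means were 2142 ± 91.6 (SD, n = 6) in KO and 1962 ± 39.9 (SD, n = 6) in WT mice, a log2 fold change of 0.13 (SE 0.04, 95% interval 0.04 to 0.21), which did not pass (unadjusted p = 0.00612, adjusted p = 0.0532, limma). The adjusted p crossed the threshold with a minimum mean of 50 (0.0468), with median centring (0.0363) and without KO-Veh mouse 2 (0.0455), in a range of 0.0363 to 0.11 over the settings and 0.0455 to 0.116 over the omissions of a mouse. Without KO-Mem mouse 1, the highest of them, the genotype estimate was 0.11 (adjusted p = 0.116). The log2 fold change was 0.10 in Veh-K/W (adjusted p = 0.473) and 0.15 in Mem-K/W (adjusted p = 0.231), and 0.18 in KO-M/WT-V (SE 0.07, adjusted p = 0.147). Memantine gave 0.05 (SE 0.04, 95% interval -0.03 to 0.13, adjusted p = 0.73) over both genotypes.

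The promoters of Clcn7 and Clcn6 are shown because their windows around a transcription start held a repeated short motif, while the values of only Clcn7 separated the genotypes. The motif searched was CACGTG, which reads the same on both strands and is the core of the E-box element in the promoters of many lysosomal genes. Windows of RefSeq (GRCm38.p6) of 300 bases, from 250 before to 50 after a start, were searched. The motif was found in 7.15% of the 32851 windows, and 0.594% held at least 2 copies. Of the 9 genes 8 had a window, some more than 1, and 6 of their 13 windows held the motif. The windows of the 2 starts of Slc12a7 overlap and share a single copy, and the second window of Clcn7 held none. The sequences below run 5′ to 3′ from 250 bases before the start to 30 bases after it, with the motif in capitals, for Clcn7 at chr17:25133141-25133420 (plus strand) and Clcn6 at chr4:148038784-148039063 (minus strand).
Clcn7: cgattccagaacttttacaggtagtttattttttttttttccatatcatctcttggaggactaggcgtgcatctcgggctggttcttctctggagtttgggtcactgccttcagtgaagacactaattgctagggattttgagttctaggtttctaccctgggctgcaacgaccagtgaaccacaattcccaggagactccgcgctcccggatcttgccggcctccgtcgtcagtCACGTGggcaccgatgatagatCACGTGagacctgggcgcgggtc
Clcn6: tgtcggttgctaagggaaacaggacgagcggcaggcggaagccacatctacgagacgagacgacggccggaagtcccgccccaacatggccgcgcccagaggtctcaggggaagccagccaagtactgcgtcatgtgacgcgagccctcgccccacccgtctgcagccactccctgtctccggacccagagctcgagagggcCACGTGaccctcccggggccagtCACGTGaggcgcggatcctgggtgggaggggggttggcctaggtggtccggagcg
The motif starts at -15 and 8 from the start of Clcn7, and at -48 and -25 from that of Clcn6. A match is a description of the letters and says nothing on whether a factor binds there. Clcn6 had values of 3301 to 3541 in WT and of 3402 to 3591 in KO mice, which overlapped.

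Slc12a5 (ENSMUSG00000017740, chromosome 2, 164960802 to 164999731, plus strand), the neuronal chloride exporter KCC2, was not called in any comparison. Its normalized counts were 23730, 22930 and 22620 (WT-Veh), 24030, 23260 and 23160 (WT-Mem), 25230, 24690 and 23880 (KO-Veh) and 23600, 24200 and 24180 (KO-Mem). KO-Veh mice lay above all WT-Veh mice, with the lowest KO-Veh mouse at 23880 and the highest WT-Veh mouse at 23730, and the other groups overlapped with both. The genotype log2 fold change was 0.06 (SE 0.03, 95% interval -0.01 to 0.13, adjusted p = 0.239, limma), so that an increase beyond 0.13 and a decrease beyond 0.01 on the log2 scale lie outside the interval. With quantile normalization the estimate was 0.09 and passed (adjusted p = 0.0472, in a range of 0.0472 to 0.292 over the settings). For memantine the estimate was -0.01 (95% interval -0.08 to 0.07, adjusted p = 0.975).

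Slc12a2 (ENSMUSG00000024597, chromosome 18, 57878678 to 57946821, plus strand), the importer NKCC1, had normalized counts of 3284, 3273 and 2863 (WT-Veh), 3137, 3242 and 2962 (WT-Mem), 3140, 3200 and 3442 (KO-Veh) and 2998, 3029 and 3102 (KO-Mem). Its lowest value was in WT-Veh mouse 3 and its highest in KO-Veh mouse 3, both of which stood apart in other genes. The genotype estimate was 0.01 (95% interval -0.09 to 0.11, adjusted p = 0.894, limma) and became -0.04 without those mice. In KO mice all 3 Mem values lay below all 3 Veh values, a log2 fold change of -0.10 (95% interval -0.23 to 0.03, adjusted p = 0.598). Without KO-Veh mouse 3, the highest of them, it was -0.06 (adjusted p = 0.746), and the adjusted p over the omissions of a mouse ranged from 0.358 to 0.953.

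The ratio of Slc12a5 to Slc12a2 was computed in each mouse, since the cotransporters act against each other. On the scale of normalized counts it averaged 7.38 ± 0.464 in WT-Veh against 7.563 ± 0.562 in KO-Veh mice, and 7.55 ± 0.339 in WT-Mem against 7.887 ± 0.096 in KO-Mem mice (SD, n = 3 each). By mouse it was 7.23, 7.01 and 7.9 (WT-Veh), 7.66, 7.17 and 7.82 (WT-Mem), 8.03, 7.72 and 6.94 (KO-Veh) and 7.87, 7.99 and 7.8 (KO-Mem). All groups overlapped, and the lowest ratio was in KO-Veh mouse 3. The ratio was 1.035-fold higher in KO than in WT mice and 1.034-fold higher in Mem than in Veh mice. An exact permutation test within strata gave p = 0.29 for genotype and p = 0.315 for memantine (both 0.63 after Benjamini-Hochberg over 8 comparisons). Without KO-Veh mouse 3 the log2 ratio of KO to WT mice moved from 0.05 to 0.08 and that of Mem to Veh mice from 0.05 to 0.02. The 6 comparisons of 3 against 3 mice, where the smallest p that the exact test can give is 0.1, gave p from 0.2 to 1.

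Slc12a7 (ENSMUSG00000017756, chromosome 13, 73733094 to 73816754, plus strand), encoding KCC4, was the lowest and most variable of the 9. Its normalized counts were 228.4, 266.8 and 189.7 (WT-Veh), 211.8, 219.4 and 329.6 (WT-Mem), 257.3, 245.1 and 312.2 (KO-Veh) and 270.7, 204.9 and 195.5 (KO-Mem). The groups overlapped throughout, and the highest value was in WT-Mem mouse 3. The interaction estimate was -0.42 (SE 0.26, 95% interval -0.98 to 0.14, adjusted p = 0.947, limma). It was -0.19 with KO-Veh mouse 3 and WT-Veh mouse 3 left out, and -0.565 without KO-Mem mouse 1. Over the omissions of a single mouse it ranged from -0.565 to -0.217, with no call.

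Clcn2 (ENSMUSG00000022843, chromosome 16, 20702964 to 20717746, minus strand), the plasma membrane channel, had a single mouse far from the others. Its normalized counts were 2246, 2194 and 2959 (WT-Veh), 2191, 2139 and 2165 (WT-Mem), 2216, 2402 and 2335 (KO-Veh) and 2429, 2286 and 2336 (KO-Mem). WT-Veh mouse 3 lay far above the rest, all WT-Mem mice lay below every other mouse, and the KO-Veh mice lay between 2216 and 2402. In WT-M/V the log2 fold change was -0.175 (adjusted p = 0.978, limma), and it was -0.037 without WT-Veh mouse 3. The genotype estimate was 0.02 (95% interval -0.12 to 0.17, adjusted p = 0.87, limma). Without WT-Veh mouse 3 alone it was 0.09 (unadjusted p = 0.0335, adjusted p = 0.137), and without KO-Veh mouse 3 alone 0.03 (adjusted p = 0.842). With both of these mice left out it was 0.09 (unadjusted p = 0.0499, adjusted p = 0.2). Over the 12 omissions of a single mouse it ranged from -0.003 to 0.09. In WT-Veh mouse 3 the summed oligodendrocyte markers were also the highest of all mice, 407700 against 237400 to 345300 in the others, and their part in this value was not tested. Exons of Polr2h and Fam131a on the other strand share 82 and 85 bases with those of Clcn2, 1.4% of its exonic length each.

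The 3 remaining exchangers were not called in any comparison. Clcn3 (ENSMUSG00000004319, chromosome 8, 60910389 to 60983300, minus strand) had normalized counts of 5983, 5625 and 4781 (WT-Veh), 5984, 5898 and 5164 (WT-Mem), 5764, 5581 and 6213 (KO-Veh) and 5719, 5761 and 5666 (KO-Mem). Its lowest value was in WT-Veh mouse 3 and its highest in KO-Veh mouse 3, and the groups overlapped. The genotype estimate was 0.06 (95% interval -0.06 to 0.18, adjusted p = 0.523, limma) and -0.006 without those mice. Clcn4 (ENSMUSG00000000605, chromosome 7, 7282309 to 7300851, minus strand) lay between 5638 and 6306 in all 12 mice, with a genotype estimate of -0.02 (95% interval -0.10 to 0.07, adjusted p = 0.8) whose sign turned with median centring (0.003). Its exons share 985 bases (11.5% of its exonic length) with Gm45631 on the other strand. Clcn6 (ENSMUSG00000029016, chromosome 4, 148004259 to 148038821, minus strand) lay between 3301 and 3591, with a genotype estimate of 0.03 (95% interval -0.05 to 0.10, adjusted p = 0.66).

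Counted over the comparisons of single groups, none of the 9 genes was called by limma. Unadjusted p-values under 0.05 were found for 1 of 9 in Veh-K/W (14.4% of all genes), 2 in Mem-K/W (21%), 1 in KO-M/V (8.88%), 1 in WT-M/V (3.97%), 2 in KO-M/WT-V (25.9%) and 0 in WT-M/KO-V (8.94%). Called by adjusted p were 0.0283%, 0.068%, 0%, 0.0114%, 3.37% and 0.0227% of all genes in the same order. These were only 5 genes in Veh-K/W and 12 in Mem-K/W. With DESeq2 at the same threshold, the study reports far more genes in both. A missing call here thus holds for limma on these values, and the reason for the difference was not tested. The study's enrichment analysis also places chloride transport among the sets most raised in KO-Veh against WT-Veh mice. That analysis ranked all genes and tested sets of genes, a different measure from the calls of single genes here. In Veh-K/W, 6 of the 9 estimates were above 0, with a median log2 fold change of 0.056, against 0.002 for all genes. The groups did not overlap for 3 of 9 in Veh-K/W (20.4% of all genes), namely Slc12a4, Slc12a5 and Clcn7, for 3 in Mem-K/W (26.2%), namely Slc12a4, Clcn2 and Clcn7, and for 3 in KO-M/V (13.9%), namely Slc12a2, Slc12a4 and Clcn7. In WT-M/V 2 did not overlap (9.34%), namely Slc12a4 and Clcn2. In KO-M/WT-V 2 did not (31.1%), namely Slc12a4 and Clcn7, and in WT-M/KO-V 2 (14.9%), namely Clcn2 and Clcn7. No gene of the 9 was called for the interaction (0% of all genes), and none had an unadjusted p under 0.05 (4.76% of all genes).

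Related genes were taken from 4 lists. Of the other cation-chloride cotransporter genes, 4 were listed and 3 tested, and only Slc12a9, an orphan of the family, was called for genotype, at 1290 ± 94 (SD, n = 6) in KO and 1114 ± 43.9 (SD, n = 6) in WT mice (log2 fold change 0.21, SE 0.06, adjusted p = 0.0309, limma). The call was lost in 8 of 12 fits without a single mouse (adjusted p 0.00848 to 0.0747) and with KO-Veh mouse 3 and WT-Veh mouse 3 left out (0.0616). All 3 estimates were above 0, with a median of 0.21. Slc12a8 had an estimate of 0.11 (adjusted p = 0.719), and Slc12a3, a sodium-chloride cotransporter known from kidney with normalized counts of only 25.04 to 112.7, one of 0.53 (adjusted p = 0.187). Of the other ClC genes, 2 of 4 were tested and neither was called, Clcn5 at 0.18 (SE 0.06, adjusted p = 0.0574) and Clcn1 at 0.09 (adjusted p = 0.72).

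Among 14 tested genes of kinases, adaptors and partners, 1 was called for genotype. It was Mlc1, a membrane protein of astrocyte endfeet that associates with GlialCAM, itself a partner of ClC-2, and it fell from 4339 ± 477 (SD, n = 6) in WT to 3714 ± 278 (SD, n = 6) in KO mice (log2 fold change -0.22, SE 0.06, adjusted p = 0.0405, limma). Its highest value, 5246, was in WT-Veh mouse 3 and its lowest, 3377, in KO-Veh mouse 3, and without both mice the log2 fold change was -0.14 (adjusted p = 0.103). The call was lost in 9 of the 12 fits without a single mouse (adjusted p 0.0245 to 0.0978). Hepacam, which encodes GlialCAM, had an estimate of -0.03 (adjusted p = 0.759). Ostm1, the subunit of ClC-7, had 1849 ± 121 (SD, n = 6) in KO and 1624 ± 115 (SD, n = 6) in WT mice, a log2 fold change of 0.19 (SE 0.06), with an adjusted p of 0.0501, just above the threshold, and its values overlapped at 1702 in KO-Mem mouse 3 and 1742 in WT-Mem mouse 3. Without KO-Veh mouse 3 and WT-Veh mouse 3 it was 0.13 (adjusted p = 0.155), and the adjusted p ranged from 0.0407 to 0.155 over the settings and from 0.0222 to 0.121 over the omissions of a mouse, 2 of which gave a call. Wnk2, a kinase of the WNK family that acts on these cotransporters, had 0.14 (adjusted p = 0.0951), and SPAK (Stk39) and OSR1 (Oxsr1), the kinases that phosphorylate them, had 0.07 (adjusted p = 0.596) and 0.05 (adjusted p = 0.495).

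Of 20 tested genes of other chloride and bicarbonate transport, 1 was called higher and 1 called lower in KO mice for genotype. Clcc1, a chloride channel of the endoplasmic reticulum, was at 696.7 ± 138 (SD, n = 6) in KO and 538.9 ± 38.7 (SD, n = 6) in WT mice (log2 fold change 0.35, SE 0.10, adjusted p = 0.0448, limma), with its highest values, 896.2 and 815, in KO-Mem mice 1 and 2. It lost its call in 7 of the 12 fits without a single mouse (adjusted p 0.0217 to 0.104) and had an adjusted p of 0.132 without KO-Veh mouse 3 and WT-Veh mouse 3. Without KO-Mem mouse 1 its log2 fold change was 0.28 (adjusted p = 0.102). Car2, a carbonic anhydrase abundant in oligodendrocytes, fell from 3863 ± 546 to 2697 ± 657 (SD, n = 6 each, log2 fold change -0.55, SE 0.13, adjusted p = 0.0194). It was called with any single mouse left out (adjusted p 0.00337 to 0.0496) and without both KO-Veh mouse 3 and WT-Veh mouse 3 (0.0493), but not without the variance trend (0.057). Without KO-Mem mouse 1 its log2 fold change was -0.42 (adjusted p = 0.0224). Ttyh2 was called lower in KO-M/WT-V (log2 fold change -0.33, adjusted p = 0.0432), a call lost in 5 of 6 fits without a single mouse (0.0233 to 0.161), and Lrrc8a, the obligate subunit of the volume-regulated anion channel, had a genotype estimate of 0.17 (adjusted p = 0.0741). Across the 4 lists, 10.8% of all genes tested is the background for the genotype counts. For the call in KO-M/WT-V the background is 3.37%. With memantine over both genotypes no gene of the lists was called.

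**Figure D4:**
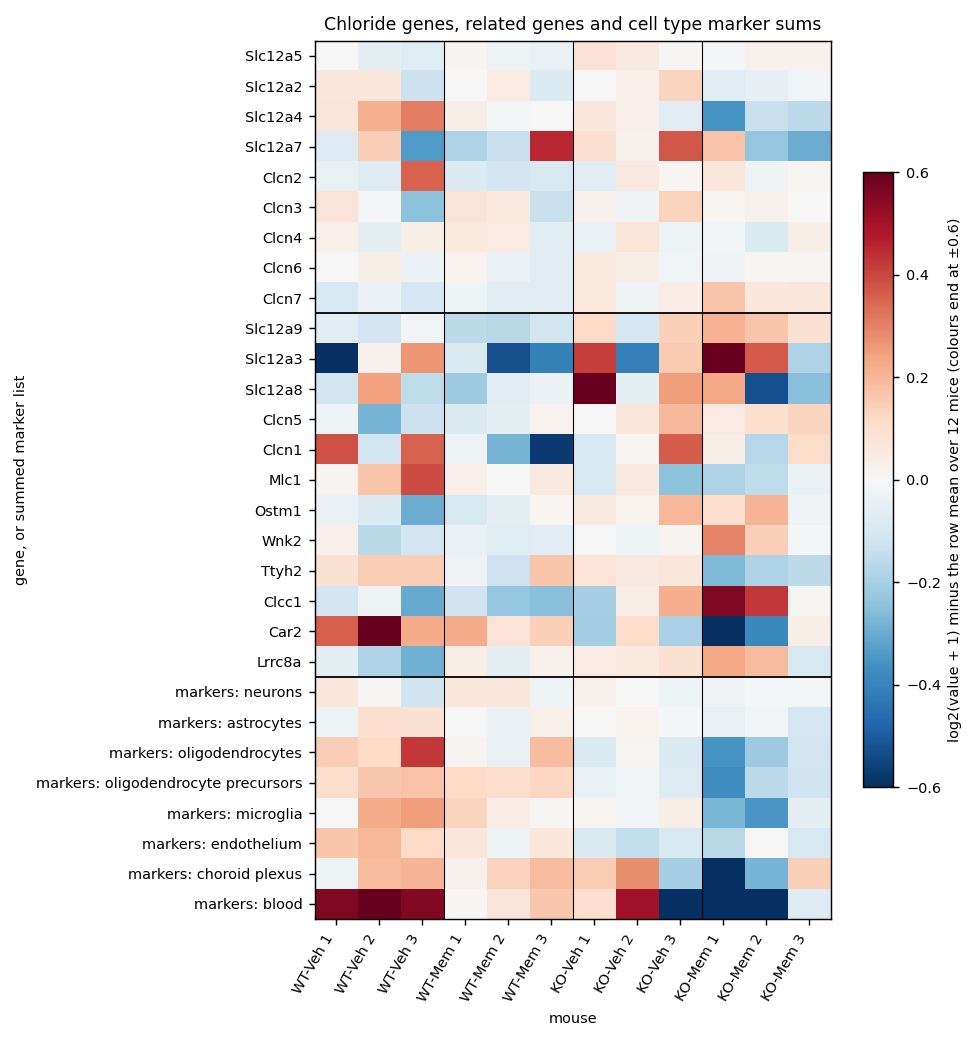
Log2(value + 1) minus the mean of the row over the 12 mice, for the 9 genes (top), related genes named by rule (middle) and summed marker lists of cell types (bottom), with 1 column per mouse and colours ending at 0.6 in either direction. Slc12a4, Car2 and the sums of oligodendrocyte and blood markers are red in WT-Veh mice and blue in KO-Mem mouse 1, and Clcn7 runs the other way.

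Pairs of the 9 genes were compared over the 12 mice with permutation tests of 36 pairs. The tests permuted all 12 mice without regard to group, so differences between groups enter these p-values. Slc12a2 and Clcn3 gave a Pearson r of 0.795 (permutation p = 0.00139, Benjamini-Hochberg p = 0.025) and a Spearman rho of 0.629 (permutation p = 0.0327, Benjamini-Hochberg p = 0.334). Without the 2 mice farthest from the median of Slc12a2, which were WT-Veh mouse 3 and KO-Veh mouse 3, r was 0.539, within WT mice it was 0.897, within KO mice 0.735, and for the deviations from the group means 0.906. These mice lay at the ends of this relation when all 12 were used. Slc12a4 and Clcn7 gave r = -0.817 (permutation p = 0.00111, Benjamini-Hochberg p = 0.025), with a rho of -0.748 that did not pass (Benjamini-Hochberg p = 0.264). Without the 2 farthest mice r was -0.584, within WT mice -0.333, within KO mice -0.856 and for deviations from the group means -0.428, so that r was nearer to 0 within WT mice and inside the groups.

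**Figure D5:**
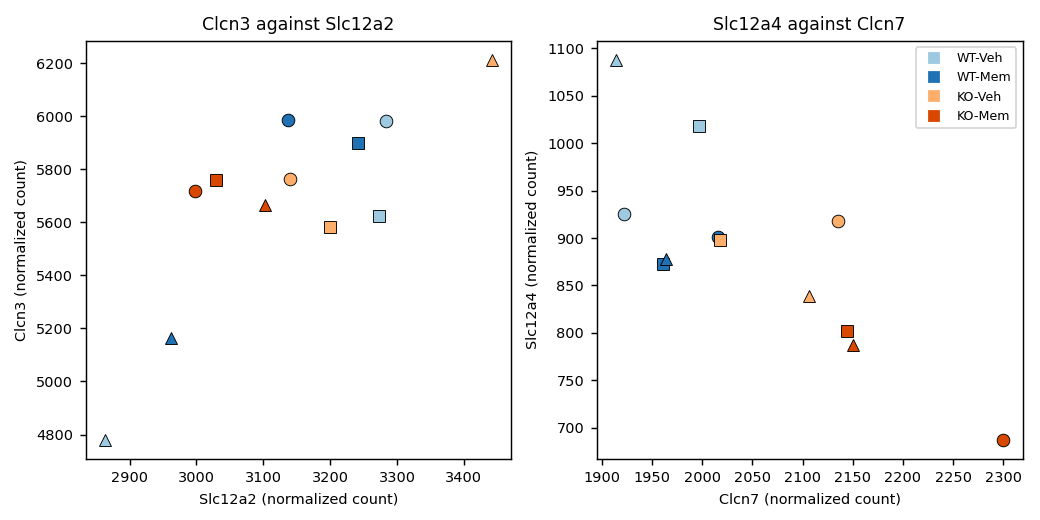
Normalized counts of Clcn3 against Slc12a2 (left) and of Slc12a4 against Clcn7 (right), with 1 point per mouse, coloured by group and shaped by mouse number. On the left WT-Veh mouse 3 (2863 and 4781) and KO-Veh mouse 3 (3442 and 6213) form the ends, and on the right KO-Mem mouse 1 (2300 and 687.5) lies at the end of the falling line.

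Of 12868 genes with a mean of at least 100, Dpysl5 (r = 0.861), Ttc9 (0.855) and Ccne2 (0.85) followed Slc12a5 most closely over the 12 mice by the Pearson r of the log2 values. Phlpp1 (0.906), CT030661.1 (0.891) and Wwp1 (0.861) followed Slc12a2 most closely. All these mice share groups and the same normalization, and these r values are a description.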

How the data were processed

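The authors quantified transcripts with Salmon (1.1.0) on GRCm38, summed them to genes with tximport and divided the estimated counts by DESeq2 (1.26.0) normalization factors over all mice. These versions are per the labels, and the study's methods name another version of DESeq2. The deposited values are this signal, a normalized count that is neither logged nor whole. Only 21.3% to 59.4% of the low values lay within 0.1 of a multiple of 1 read, so reads were not recovered and no count test was run. A value of 1 read was about 0.874 to 1.126.

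Symbols, positions and exon lengths came from GENCODE M21. Genes with a mean of at least 10 over the mice of a fit were tested with limma 3.58.1 (R 4.3.3, lmFit, eBayes with trend, two-sided) on log2(value + 1). Each of 6 group comparisons used its own 6 mice, and pooled effects and the interaction used all 12. Mice are separate animals, numbered by the labels, with no stated pairing. Error is the SD over mice, the SE that limma gives, or a 95% interval.

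The script was tested on simulated data with changes larger than any estimate for the 9 genes, which says nothing on power at their sizes. The 9 genes, 4 lists of related genes and the marker lists were chosen with earlier results of these data known. Named from the related lists were the genes called in any comparison, the 3 with the smallest genotype p of each list, and, chosen after their values were seen, Hepacam, Stk39 and Oxsr1. Hepacam was matched through its RefSeq synonym Glialcam. The alternatives were other filters, pseudocounts, normalizations and variance models, all mice in a single fit, a replicate block, and the omission of each mouse, and, chosen after seeing the data, of KO-Veh mouse 3 with WT-Veh mouse 3. A gene of the related lists is not reported here.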

Additional observations from a re-analysis of the deposited data

Results flagged for a closer look

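The highest and lowest mouse of each gene were compared with the nearest other mouse by Dixon's ratio, in 36 groups of 6 mice (WT, KO, Veh and Mem) and set against its 95% critical value. Chance alone passes about 1 in 20 such groups, and 3 of the 36 passed. Clcn2 in WT-Veh mouse 3 had 2959 normalized counts, and the nearest of the 6 WT mice had 2246, a gap of 0.869 of the range. Among the 6 Veh mice the same 2959 was followed by 2402, a gap of 0.728 of the range. Clcn3 in KO-Veh mouse 3 had 6213 normalized counts, and the nearest of the 6 KO mice had 5764, a gap of 0.711 of the range. WT-Veh mouse 3 also had the highest summed oligodendrocyte markers (407700), and KO-Veh mouse 3 was the mouse with cerebellar transcripts (744.8 for Cbln3). The part of either in these values was not tested.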

How the results depend on the processing

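For the 9 genes, 39 log2 fold changes were followed, a selection made for this report from all those recomputed. Estimates left out include some near 0, such as that of Clcn4 in Veh-K/W (-0.001). The selected ones were set against 727 alternatives in all. Of these, 680 kept their direction and their side of the threshold, 28 turned direction, 10 lost a call and 9 gained one. The causes were not tested. Of the 9 genes, 1 was called for genotype. That count was 2 with a minimum mean of 50 and with median centring (Slc12a4 and Clcn7), 2 with quantile normalization (Slc12a4 and Slc12a5), 0 without the variance trend, 0 with KO-Veh mouse 3 and WT-Veh mouse 3 left out, and 0 to 2 when single mice were left out. In KO-M/WT-V the count of 0 became 1 (Slc12a4) with all 12 mice in a single fit, with a pseudocount of 5 and with a minimum mean of 50, and was 0 to 1 when single mice were left out. Of the correlated pairs, 2 passed over 12 mice, 0 within WT, 0 within KO and 1 for deviations from group means. With 6 mice a pair can hardly pass over 36 pairs, so the counts within a genotype say nothing about stability. Median centring raised the share of higher among called genes for genotype from 45.3% to 54.7%.

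The replicate numbers did not pair the mice, since deviations of same-numbered mice correlated at -0.175 to 0.08. With the replicate number as a block, 1 of the 9 genes (Slc12a4, adjusted p = 0.0365, limma) was called in KO-M/WT-V, Slc12a4 for genotype had an adjusted p of 0.0422, and Clcc1 was no longer called for genotype (0.0561).

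The estimates that turned sign are given here. With median centring they were 0.003 (Clcn4, genotype), 0.005 (Slc12a5, memantine) and 0.004 (Clcn4, memantine), and with quantile normalization -0.003 (Clcn3, memantine). With KO-Veh mouse 3 and WT-Veh mouse 3 left out, genotype gave -0.039 for Slc12a2, -0.089 for Slc12a7 and -0.006 for Clcn3, and memantine -0.011 for Clcn3. When single mice were left out, the genotype estimate ranged from -0.022 to 0.03 for Slc12a2, -0.035 to 0.158 for Slc12a7 and -0.003 to 0.093 for Clcn2. That of memantine ranged from -0.016 to 0.006 for Slc12a5, -0.033 to 0.039 for Clcn3 and -0.022 to 0.012 for Clcn4. Slc12a4 ranged from -0.039 to 0.026 in WT-M/KO-V and from -0.089 to 0.035 for the interaction. The log2 ratio of Slc12a5 to Slc12a2 ranged from -0.01 to 0.096 in Veh-K/W, -0.002 to 0.085 in WT-M/V and -0.061 to 0.045 in WT-M/KO-V.

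Among all genes, the calls moved most in KO-M/WT-V (595, from 7 to 2067 by setting and 1 to 2490 by omitted mouse), Mem-K/W (12, from 4 to 636 and 2 to 1911) and genotype (1907, from 636 to 1975 and 694 to 2683). Calls also moved in Veh-K/W (5, from 2 to 5 and 2 to 53), KO-M/V (0, and 0 to 97 by omitted mouse), WT-M/V (2, from 0 to 2 and 1 to 3), WT-M/KO-V (4, from 0 to 4 and 1 to 5) and the interaction (0, and 0 to 4 by omitted mouse). The 95% interval for genotype was widest for Slc12a7, where it ran from -0.25 to 0.34 on the log2 scale.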
